A study of Mus musculus with 4 samples.

Results

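Genes of MHC class I and of the machinery that supplies it with peptide were examined in LPS-stimulated splenic B cells of mice that lack IκB-ζ in B cells. The genes were taken by symbol from a list of 33, of which 31 have a row among the 30041 genes in the files. H2-L and H2-Q4 have no row under these symbols. Of the 31 genes, 29 reached a score of 0.005 in at least one sample, as did 9727 genes in all, and Mr1 and Hfe did not. RNA-seq had been done on 2 samples of each genotype, called control 1, control 2, cKO 1 and cKO 2 here after their labels. Control mice were Nfkbiz fl/Δ without Cre, so they too carry one deleted allele of Nfkbiz, the gene of IκB-ζ, and cKO mice were Nfkbiz fl/Δ with Mb-1 Cre, in which the promoter of Cd79a drives Cre in the B cell lineage. All samples are labelled C57BL/6, and the age of the mice and the number of mice behind a sample are not given in the sources used here. B cells were purified by negative selection and cultured with LPS, a bacterial cell wall component that activates B cells, for 72 h. The labels give LPS at 20 mg/ml, whereas the methods of the study give the same number in μg/ml.

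The value of a gene in a sample is the score that the authors deposited, which has no stated unit. Low scores multiplied by the exon length of a gene fell within 0.2 of a whole number of steps for 74.6 to 81.9% of values in a sample, against 41.4 to 43.7% with the lengths shuffled, so the score was read as a value per exon base. If 1 step is 1 read, the libraries held 17500000 to 19900000 reads, which is an inference from the values. Fold changes are cKO relative to control on the log2(score + 0.0001) scale, on which changes of low genes are understated, and p-values are from limma with Benjamini-Hochberg adjustment over the 9727 genes. The score of Nfkbiz was 0.0241 and 0.0226 in control 1 and control 2, and 0.0127 and 0.0116 in cKO 1 and cKO 2 (log2 fold change -0.94, limma adjusted p = 0.0282). All 9 B cell markers examined had a score above 0 in the 4 samples, and the scores of the 9 summed to between 2.56 and 3.09. The summed score of 12 T and NK cell markers was 0.0356 and 0.0472 in the controls, against 0.0748 and 0.0684 in cKO B cells, and most of it came from Lck, at 0.0318 and 0.0437 against 0.0690 and 0.0636, whereas Cd3e, Cd3d, Cd3g and Cd4 were at 0.0006 or less. That of 13 myeloid markers was 0.198 and 0.186 against 0.226 and 0.225, of which Itgam, at 0.135 to 0.158, was the largest part. Of the 5 myeloid markers past the filter, 3 had both cKO scores above both control scores and 1 had both below, against 28.1% and 30.1% of all genes. The 3 were the lysozyme genes Lyz1 and Lyz2 and Cd68 (log2 fold changes 1.46, 1.39 and 0.75, limma adjusted p = 0.0986, 0.0961 and 0.225). Fcgr3 was below (-0.82, limma adjusted p = 0.0745). Among those under the filter, Cd14, Csf1r and Emr1 were also higher in both cKO samples, whereas the groups overlapped in S100a8 and Itgax. Gzma was at 0 in every sample, as were S100a9 and Elane. Of the 9 B cell markers, Cd79a, a signalling chain of the B cell receptor, and Fcer2a, which encodes CD23, were called lower in cKO (log2 fold changes -0.78 and -0.78, limma adjusted p = 0.0294 and 0.0428), and 3 had a log2 fold change above 0, Blk at 0.48 and Cd79b at 0.28 among them. Only the cKO mice carry Mb-1 Cre, whose promoter is that of Cd79a. The part of this Cre allele in the Cd79a score was not tested. Of the 5 plasma cell markers past the filter, Prdm1, which encodes Blimp-1, was called lower (-2.82, limma adjusted p = 0.0429), and 3 were above 0, among them Sdc1, which encodes CD138, at 0.77 (limma adjusted p = 0.116). Of the erythroid markers, Hbb-b1 and Hbb-b2 stood apart in control 1, at 0.00657 and 0.00638 against at most 0.00116 elsewhere, whereas Hba-a1, Hba-a2 and Alas2 were at 0.00035 or less in every sample and not highest in control 1. In these bulk samples fewer cells of a type and less RNA per cell cannot be told apart.

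MHC class I molecules consist of a heavy chain and β2-microglobulin, and they display peptides from proteins made inside the cell to CD8 T cells. The proteasome cuts such proteins, and the immunoproteasome contains a set of catalytic subunits induced by interferon-γ and present at high level in lymphocytes. The peptides are carried into the endoplasmic reticulum by the Tap1-Tap2 transporter, trimmed there by Erap1 and loaded onto the heavy chain with the help of tapasin, the product of Tapbp. H2-K1 and H2-D1 encode the classical heavy chains, whereas the genes of the Q, T and M regions encode mostly nonclassical ones. The heavy chain genes lie close together in the mouse MHC on chromosome 17, resemble each other in sequence and vary between mouse strains.

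The reads had 38 bases, so genes that share sequence also share reads. A 38-base stretch of the exon that encodes the α3 domain, the part of the heavy chain next to the membrane, was compared among the 15 heavy chain genes that could be placed on NCBIM37 (mm9) by their symbols. It was chosen as the stretch of H2-K1 found exactly in the most other heavy chain genes, so it is an extreme. A read from it cannot be assigned to a single gene. The stretch in H2-K1 (chr17:34134325-34134362, minus strand, coding sequence) was found without a difference in H2-D1, H2-Q6, H2-Q7, H2-Q8, H2-Q10, H2-T3, H2-T10, H2-T22 and H2-T23. The stretches of H2-Bl, H2-M2 (chr17:37618512-37618549, minus strand), H2-M3, H2-M5 and H2-T24 differed from it in 1, 3, 3, 4 and 4 bases, and capitals mark these bases.
H2-K1: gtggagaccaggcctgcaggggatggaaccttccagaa
H2-Bl: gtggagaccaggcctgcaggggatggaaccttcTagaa
H2-M2: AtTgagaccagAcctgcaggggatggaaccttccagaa
H2-M3: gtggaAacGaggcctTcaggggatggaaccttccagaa
H2-M5: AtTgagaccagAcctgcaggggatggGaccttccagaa
H2-T24: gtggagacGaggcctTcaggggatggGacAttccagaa
Over whole genes, the share of exonic stretches of this length that also occur elsewhere on chromosome 17 was 72.1% for H2-Q7, 54.2% for H2-Q8, 45.7% for H2-T10, 46.6% for H2-T22, 25.8% for H2-K1 and 21.9% for H2-D1. It was 3.54% for H2-M2, 2.88% for H2-M3 and 2.01% for H2-M5, so few of their stretches recur exactly on this chromosome. The same holds for H2-T3 (2.95%), although it contains the stretch compared above. For these shares, near matches and other chromosomes were not searched. The scores of the H2-Q genes, H2-T10, H2-T22 and H2-T23 are uncertain at least to the extent of their shares. The same holds, with smaller shares, for H2-K1, H2-D1 and H2-Bl (20.3%). H2-Q1 and H2-Q2 were not placed.

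The heavy chain genes differed more between control 1 and control 2 than between control 1 and either cKO sample. A sample was called outside the others in a gene when it was the highest or the lowest and its distance to the nearest sample exceeded the range of the other 3, a rule added after the data had been seen. Control 2 was outside in 16 of the 17 heavy chain genes past the filter, in 12 of them above and in 4 of them below the other samples. It was outside in 8.57% of the 9727 genes and in 0 of the 12 other genes of the list that passed the filter. Control 1, cKO 1 and cKO 2 were outside in 19.3%, 14.6% and 6.69% of the 9727 genes. H2-D1 was the exception among the heavy chains. These counts describe 1 sample, which has no replicate.

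H2-K1 was the classical heavy chain that was low in control 2. Its score was 0.752 in control 1, 0.535 in control 2, 0.765 in cKO 1 and 0.772 in cKO 2. The control 2 value was 0.701-fold that of the geometric mean of the other 3, which spanned 0.038 on the log2 scale. The score of H2-D1 was 0.594, 0.615, 0.613 and 0.597 in the same order, so the score of the other classical heavy chain was similar in all 4 samples. The ratio of the H2-K1 score to the H2-D1 score was thus 0.87 in control 2 and 1.25 to 1.29 in the other samples. H2-K1 lies at chr17:34132962-34137278 on the minus strand and H2-D1 at chr17:35399675-35404444 on the plus strand.

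Among the Q region genes, H2-Q1, H2-Q2, H2-Q6 and H2-Q10 were higher, and H2-Q7 and H2-Q8 lower, in control 2. The score of H2-Q2 was 0.0832 in control 1, 0.192 in control 2, 0.0905 in cKO 1 and 0.0889 in cKO 2, a control 2 value 2.20-fold above the other 3. H2-Q10, whose product is best known as a class I molecule secreted by liver, had scores of 0.163, 0.332, 0.163 and 0.169. The other 3 samples lay within a few percent of each other in H2-Q10, and control 2 was 2.01-fold above their geometric mean. H2-Q1 had scores of 0.143, 0.208, 0.145 and 0.148, which is the same order of samples. For H2-Q6, H2-Q7 and H2-Q8 the difference was small, with control 2 at 1.08-fold, 0.927-fold and 0.856-fold of the other 3. The summed score of the 6 genes was 1.26, 1.58, 1.24 and 1.29.

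The 6 T region genes were all higher in control 2. H2-Bl had scores of 0.272, 0.451, 0.286 and 0.284 in control 1, control 2, cKO 1 and cKO 2. The scores of H2-T3, which encodes the thymus leukemia antigen, were 0.0732, 0.123, 0.0783 and 0.0752. H2-T10 had scores of 0.0492, 0.0741, 0.0495 and 0.0479. In these genes control 2 exceeded the other 3 by 1.61-fold, 1.63-fold and 1.52-fold. H2-T22, whose product is a ligand of γδ T cell receptors, had scores of 0.144, 0.189, 0.141 and 0.141, and H2-T23, which encodes the heavy chain of Qa-1, had 0.283, 0.337, 0.283 and 0.286. The excess in control 2 was 1.33-fold and 1.19-fold, and it was 1.30-fold for H2-T24, with scores of 0.0784, 0.105, 0.0838 and 0.0811. Summed over the 6 genes the score was 0.901, 1.28, 0.921 and 0.914.

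**Figure D1:**
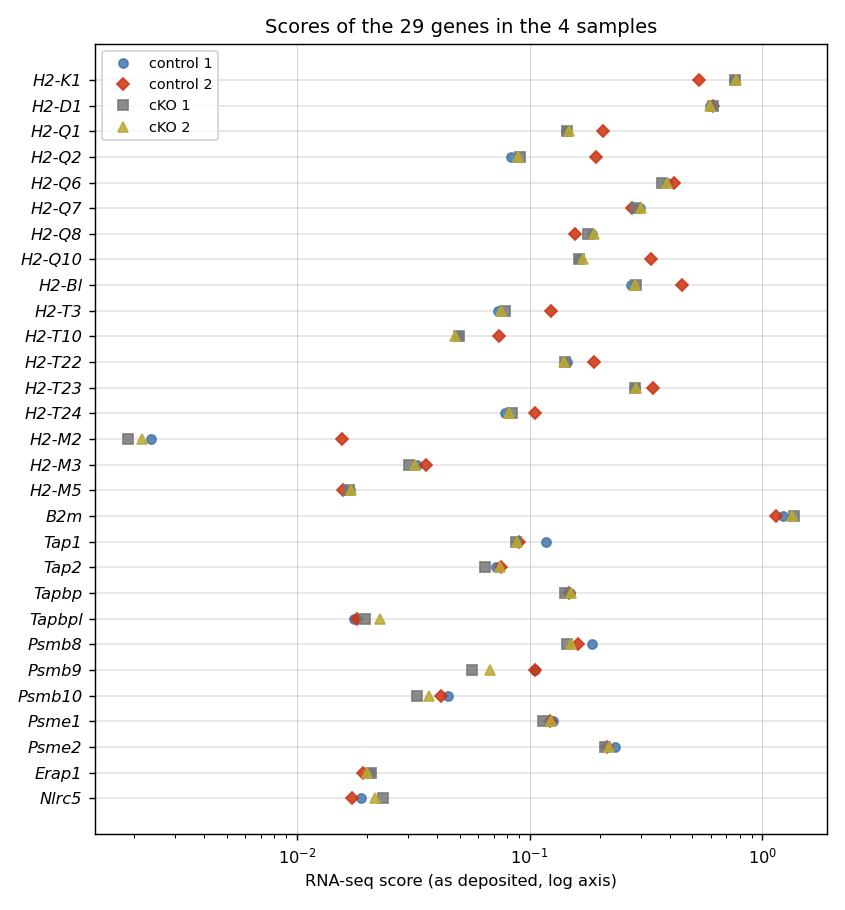
Scores of the class I and antigen processing genes in each sample, on a log axis. Each point is 1 sample. Control 2 is separated from the other samples in most heavy chain genes, such as H2-M2 and H2-Q2, and lies among them in H2-D1.

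The widest difference was in H2-M2, an M region gene at the distal end of the group (chr17:37617796-37620497, minus strand). Its score was 0.00237 in control 1, 0.0156 in control 2, 0.00189 in cKO 1 and 0.00215 in cKO 2, about 66.0, 445.3, 58.8 and 58.8 reads under the inferred depth. Control 2 was thus 7.03-fold above the other 3. H2-M3, which encodes a heavy chain that presents N-formylated bacterial peptides, had scores of 0.0329, 0.0360, 0.0304 and 0.0322, with control 2 higher by 1.13-fold. H2-M5 had scores of 0.0169, 0.0158, 0.0167 and 0.0170, and control 2 was the lowest sample by a narrow margin (0.940-fold).

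**Figure D2:**
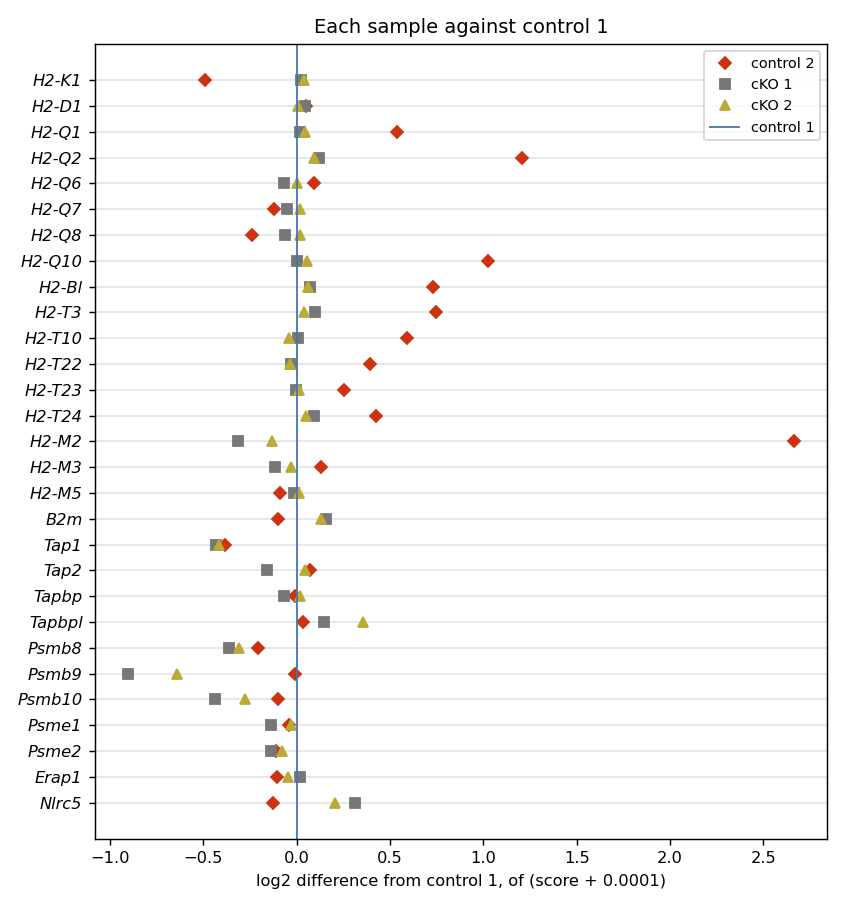
Log2 difference of control 2, cKO 1 and cKO 2 from control 1 for each gene, on the log2(score + 0.0001) scale with 1 point per sample. The control 2 points of the heavy chain genes mostly lie away from 0, farthest for H2-M2, while the points of both cKO samples lie near 0 for most of them.

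By the stricter rule, a gap of at least 2-fold, control 2 stood apart in H2-M2 and H2-Q2 and no other sample stood apart in any gene of the list. Over the 9727 genes this held for control 2 in 45 genes (0.463%), for control 1 in 31 (0.319%), for cKO 1 in 6 (0.0617%) and for cKO 2 in 5 (0.0514%). With a minimum of 1.5-fold the number of genes of the list in which control 2 stood apart was 5, against 0.874% of all genes.

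In the same stretch of chromosome 17, control 2 differed from the other samples in genes outside the list too. Between Tapbp and H2-M2, a span of 3567654 bases (chr17:34052844-37620497), 93 genes outside the list passed the filter, and control 2 was outside the other samples in 29 of them (31.2%), against 680 of 8565 genes on other chromosomes (7.94%). At 2-fold or more it stood apart in 14 of the 93 (15.1%) and in 19 of the 8565 (0.222%). Genes of this span are not separate observations, since 5 of the 14 were H2-M10.2 to H2-M10.6, class I heavy chain paralogues outside the list, with control 2 higher by 1.26 to 1.30 on the log2 scale. Without the 7 other genes named as class I heavy chains (H2-K2, H2-T9 and the H2-M10 genes), an exclusion chosen after the data had been seen, control 2 was outside in 22 of 86 genes (25.6%) and apart by 2-fold in 9 of 86 (10.5%). This exclusion went by symbol only, so class I paralogues under other symbols may remain among the 86. The widest gap was in H2-Ea-ps, the pseudogene of a class II α chain, which was listed at 1.15 in control 2 and at 0.00008, 0 and 0 in control 1, cKO 1 and cKO 2. Next came Msh5, with scores of 0.00099, 0.0179, 0.00054 and 0.00108, then 2410017I17Rik, Ng23 and D17H6S56E-3, with scores of 0.0254, 0.0255 and 0.0219 in control 2 and of at most 0.00613 in the others. Ng23 and D17H6S56E-3 overlap by 783 bases on opposite strands, so they may share reads. The class II β chain gene H2-Eb2 was low in control 2, with scores of 0.0295, 0.00962, 0.0378 and 0.0375. The files hold no read sequences, so the alleles that the samples carry at these genes were not compared.

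**Figure D3:**
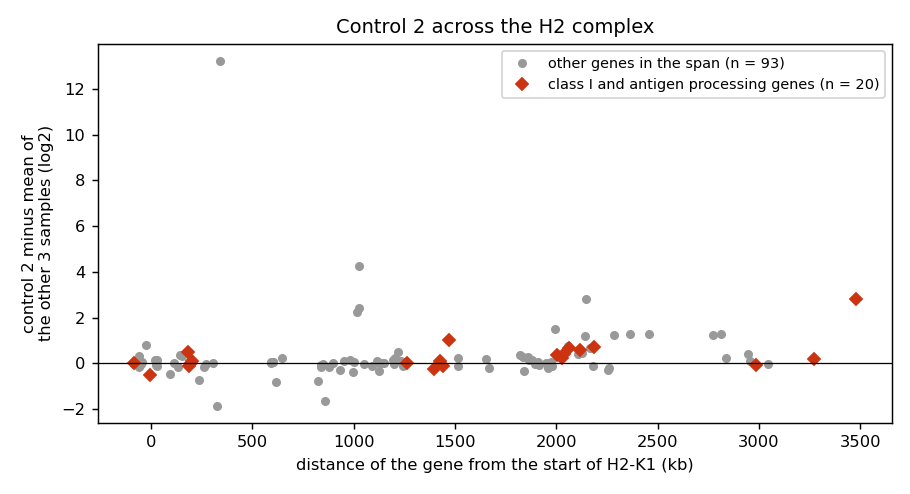
Log2 difference of control 2 from the mean of the other 3 samples for genes along the MHC span of chromosome 17, against the distance in kb from the start of H2-K1. Each point is 1 gene, with 20 genes of the list as diamonds and the 93 others as circles, and the highest point is H2-Ea-ps. H2-Q1 and H2-Q2 are not drawn. Genes with a wide difference in control 2 occur along the span in both sets.

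The fold changes of the heavy chains between cKO and control depended on which control was in the fit. Of the 17 genes, 0 were called by limma with all 4 samples, and 0 had an unadjusted limma p under 0.05, which 11.5% of the 9727 genes had as lower and 10.8% as higher in cKO. Their median log2 fold change was -0.14 with all samples and 0.0040 without control 2. H2-M2 changed by -1.56 on the log2 scale (SE 0.812, limma adjusted p = 0.314), and this was -0.22 without control 2 (limma adjusted p = 0.698) and -2.89 without control 1 (limma adjusted p = 0.00277). For H2-Q2 it was -0.50 with all samples (limma adjusted p = 0.449), 0.11 without control 2 and -1.10 without control 1 (limma adjusted p = 0.504 and 0.0037). For H2-K1 it was 0.28 with all samples (SE 0.160, limma adjusted p = 0.355), 0.03 without control 2 and 0.52 without control 1 (limma adjusted p = 0.874 and 0.0468). Without control 1, H2-Bl, H2-Q1, H2-Q2, H2-Q10, H2-T3, H2-T10 and H2-M2 were called lower and H2-K1 higher in cKO, and none of the 8 was called without control 2. In such fits the one remaining control is assumed to vary like the other samples. H2-D1 differed by 0.0013 (SE 0.0725, limma adjusted p = 0.993).

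Across the whole list, cKO B cells were lower in Psmb9 and in no other gene at a limma adjusted p under 0.05, and higher in none. Of the 9727 genes, 1.25% were called lower and 0.812% higher. At an unadjusted limma p under 0.05, 2 of the 29 genes were lower and 2 higher, against 11.5% and 10.8% of all genes. The log2 fold change was below 0 for 20 of the 29 genes and above 0 for 9, with a median of -0.12 against -0.0098 for all genes. Without control 2 the median of the list was -0.02, the genes called lower were Psmb9 and Tap1, and none was called higher, when 4.02% of all genes were called lower and 4.51% higher. Without control 1, 8 genes of the list were lower and 1 higher, against 1.66% and 1.4% of all genes. The cKO scores were both under the control scores in 7 genes of the list, namely H2-T22, H2-M2, H2-M3, Tap1, Psmb8, Psmb9 and Psmb10, and both over them in H2-K1, B2m, Tapbpl and Nlrc5. Over all genes such an order was found in 30.1% and 28.1%. With 2 samples a group, the smallest two-sided p of an exact permutation test is 0.33.

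**Figure D4:**
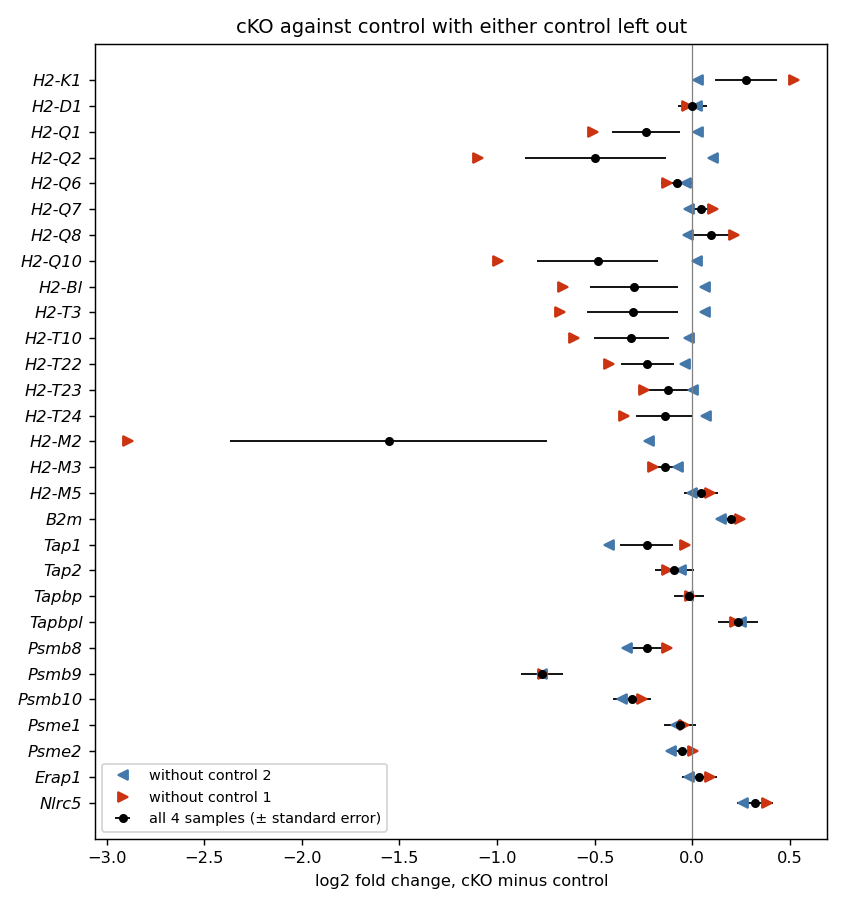
Log2 fold change of each gene in cKO relative to control, from limma, with all 4 samples (circles, with bars of 1 standard error) and with each control left out (triangles). Most heavy chain genes move with the control that is left out, whereas Psmb9 stays near -0.77.

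B2m, the gene of β2-microglobulin (chr2:121973422-121978819, plus strand), had scores of 1.23 and 1.14 in control 1 and control 2 and of 1.37 and 1.34 in cKO 1 and cKO 2. Both cKO values were above those of the controls, by 0.20 on the log2 scale (SE 0.0746, limma adjusted p = 0.209). The score of H2-D1 relative to that of B2m was 0.484 and 0.538 in the controls, against 0.448 and 0.444 in cKO B cells. Nlrc5, the transactivator of class I promoters (chr8:96996663-97051172, plus strand), scored 0.0188 and 0.0173 in the controls, against 0.0234 and 0.0217 in cKO B cells. It differed by 0.32 on the log2 scale (SE 0.0942, limma adjusted p = 0.142), so the groups did not overlap and the difference did not pass the test.

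Of the genes for peptide transport and loading, Tap1 was higher in control 1 than in the other samples. Its scores were 0.118, 0.0900, 0.0871 and 0.0881 in control 1, control 2, cKO 1 and cKO 2. The log2 fold change was -0.23 (limma adjusted p = 0.361), and -0.42 without control 2 (limma adjusted p = 0.0447), when control 1 alone stood for the group. Tap2, its partner in the transporter, had scores of 0.0719 and 0.0755 against 0.0645 and 0.0742, and Tapbp had 0.148 and 0.147 against 0.142 and 0.150. The groups overlapped in both genes. Tapbpl, which encodes the tapasin-related protein, scored 0.0177 and 0.0181 in the controls, against 0.0196 and 0.0227 in cKO B cells (log2 fold change 0.24, limma adjusted p = 0.246). Erap1 had scores of 0.0206, 0.0192, 0.0208 and 0.0199, or 0.04 on the log2 scale (SE 0.0888).

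The immunoproteasome subunit Psmb9, also called LMP2, fell in cKO B cells. Its score was 0.106 in control 1, 0.105 in control 2, 0.0566 in cKO 1 and 0.0677 in cKO 2, that is 0.106 ± 0.000375 in control and 0.0622 ± 0.00786 in cKO samples (SD, n = 2). The level in cKO was 0.587-fold that in control, or -0.77 on the log2 scale (SE 0.107, limma adjusted p = 0.0370). A fit without a variance trend gave a limma adjusted p of 0.0741, and a fit to genes of any score, in which no gene was called, 0.205. Blocking on the replicate number, which is not known to pair the samples, gave a limma adjusted p of 0.0153. Without cKO 1 and without cKO 2 the log2 fold changes of Psmb9 were -0.64 and -0.90, and neither fit called any gene, Psmb9 included. Psmb8, the subunit LMP7, had scores of 0.186, 0.161, 0.145 and 0.150 (log2 fold change -0.23, limma adjusted p = 0.233). Psmb10, the subunit MECL-1, had scores of 0.0447, 0.0417, 0.0330 and 0.0368 (log2 fold change -0.31, limma adjusted p = 0.157). In both genes the cKO scores lay below the control scores without passing the test. Psme1 and Psme2, which encode the PA28 activator of the proteasome, had scores of 0.126, 0.122, 0.114 and 0.123, and of 0.232, 0.215, 0.211 and 0.220, with the groups overlapping.

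The constitutive catalytic subunits Psmb5, Psmb6 and Psmb7, which the immunoproteasome subunits replace, had log2 fold changes of -0.22, -0.32 and -0.27, and none passed the test (limma adjusted p = 0.184, 0.346 and 0.166). Psmb6, the counterpart of Psmb9, scored 0.150 and 0.135 in the controls, against 0.0951 and 0.137 in cKO B cells, so the groups overlapped. The ratio of the Psmb9 score to the Psmb6 score was 0.705 and 0.780 in the controls, against 0.596 and 0.493 in cKO B cells. The ratio of Psmb8 to its counterpart Psmb5 was 1.64, 1.45, 1.49 and 1.57, and that of Psmb10 to Psmb7 was 0.515, 0.491, 0.485 and 0.493. The groups thus overlapped in the ratios for Psmb8 and Psmb10 and did not in that for Psmb9, and none of the ratios was tested. The summed score of the 3 immunoproteasome subunits was 0.336 and 0.308 in the controls, against 0.234 and 0.254 in cKO B cells, and that of the 3 constitutive subunits was 0.350 and 0.331 against 0.260 and 0.308. The part of the T and NK cell and myeloid marker levels in these differences was not tested.

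**Figure D5:**
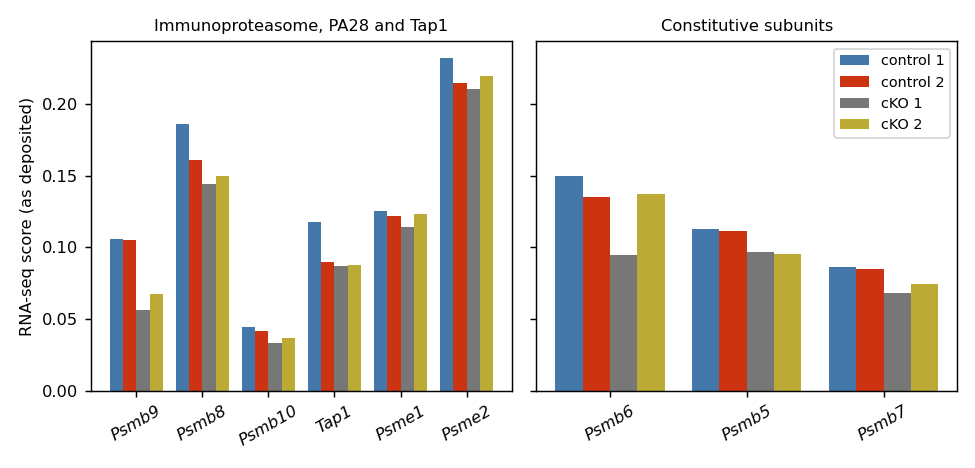
Scores of the immunoproteasome subunits, PA28 and Tap1, and of the constitutive subunits, in each sample, on a linear axis from 0. Each bar is 1 sample. The cKO scores of Psmb9 (0.0566 and 0.0677) lie below the control scores (0.106 and 0.105), and the cKO scores of Psmb6 are spread between 0.0951 and 0.137.

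Psmb9 and Tap1 are neighbours that point away from each other, Psmb9 at chr17:34318932-34324709 on the minus strand and Tap1 at chr17:34324498-34334170 on the plus strand of NCBIM37. The 250 bases before their starts in RefSeq (GRCm38.p6) share 225 bases on opposite strands. The ratio of the Psmb9 score to the Tap1 score was 0.90 and 1.17 in the controls, against 0.651 and 0.769 in cKO B cells. The window of Psmb9 is shown because Psmb9 was the called gene, with those of H2-K1 and B2m beside it. In the sequences, capitals mark matches on either strand to GGNNTTNCC, a κB-like motif, or to GAAANNGAA. The latter is a motif like the interferon-stimulated response element. The Psmb9 window holds neither motif. The opposite arrangement, with GAA first and GAAA last, was not searched for. The H2-K1 window holds such a stretch on the other strand, shown as tttcacttc, and it is left in lower case. H2-K1 is given at chr17:34000348-34000597 on the minus strand, B2m at chr2:122147437-122147686 on the plus strand and Psmb9 at chr17:34187331-34187580 on the minus strand, all GRCm38.p6.
H2-K1 promoter: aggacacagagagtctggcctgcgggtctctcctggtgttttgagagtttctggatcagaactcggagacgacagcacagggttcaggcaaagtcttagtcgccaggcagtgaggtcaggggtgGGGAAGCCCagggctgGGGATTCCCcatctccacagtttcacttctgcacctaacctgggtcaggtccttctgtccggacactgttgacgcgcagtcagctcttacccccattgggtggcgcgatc
B2m promoter: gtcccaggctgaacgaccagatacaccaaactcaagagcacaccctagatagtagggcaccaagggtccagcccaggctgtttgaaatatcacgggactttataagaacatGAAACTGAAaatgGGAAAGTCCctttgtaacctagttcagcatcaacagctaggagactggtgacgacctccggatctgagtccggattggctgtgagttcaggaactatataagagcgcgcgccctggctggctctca
Psmb9 promoter: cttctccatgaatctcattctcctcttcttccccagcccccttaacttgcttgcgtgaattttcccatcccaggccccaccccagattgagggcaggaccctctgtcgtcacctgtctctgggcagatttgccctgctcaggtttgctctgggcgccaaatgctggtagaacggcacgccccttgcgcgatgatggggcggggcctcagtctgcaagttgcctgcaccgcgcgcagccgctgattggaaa
In B2m, which had a score above 1 in every sample, the response element-like match comes before the κB-like match, without overlap. Of the 33 symbols, 24 matched a promoter entry. For the counts that follow, each motif was searched on both strands from 250 bases before to 50 bases after the start, in these genes and in all promoters alike. GGNNTTNCC occurred in 8 of them (33.3%), 7 of which are heavy chain genes and the other B2m, and in 16% of all 32851 promoters. The heavy chain genes resemble each other in sequence, so their matches are not separate observations. H2-Q4, which has no row among the scores, is among the 7. GAAANNGAA occurred in 6 (25%), in Psme1 after the start only, and in 8.56% of all. Stretches with GAA first and GAAA last, as in H2-K1, are not in these counts, which therefore do not show that the other promoters lack a response element. The letters TGACG, part of a cyclic AMP response element, occurred in 11 (45.8%) against 20.8%, and CCAAT in 14 (58.3%) against 37.4%, both including Psmb9. A match is not a bound site.

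Mr1, which encodes a class I-like presenter of vitamin B metabolites, and Hfe, a class I-like regulator of iron uptake, stayed below the filter. Mr1 had scores of 0.00217, 0.00314, 0.00249 and 0.00228, and Hfe had 0.00007, 0.00002, 0.00012 and 0.00011, about 1.3 to 8.5 reads under the inferred depth, so a difference in Hfe was not detectable at this depth. Of 14 other class I-like genes with a row, 1 passed the filter, Cd1d1, which was not called.

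Related genes outside the list had few calls or none. Of 12 chaperones and translocation genes of the endoplasmic reticulum, such as Calr and Pdia3 of the peptide-loading complex, 0 were called by limma in either direction with all samples, although 11 had a log2 fold change below 0 and the median was -0.34. At an unadjusted limma p under 0.05, 8 of the 12 were lower and 0 higher, against 11.5% and 10.8% of all genes, and without control 2 the adjusted test called Calr, Hspa5, Hsp90b1, Pdia6 and Sec61g lower, against 4.02% of all genes. The same 11.5% and 10.8% apply to the unadjusted counts of the lists that follow. Of 7 cytosolic and other peptidases 0 were called by limma (by unadjusted p under 0.05, 1 lower and 1 higher), with a median of -0.17, and of 7 constitutive proteasome genes 0 were called (by unadjusted p under 0.05, 3 lower), with a median of -0.22. Of 21 regulators of the interferon pathway and of class I promoters, 0 were called by limma (by unadjusted p under 0.05, 2 lower and 3 higher) and 14 had a log2 fold change above 0, with a median of 0.06. Jak2, a kinase of the interferon-γ receptor, had the largest log2 fold change of these 21 at 0.70 (limma adjusted p = 0.106), with scores of 0.0143, 0.0193, 0.0297 and 0.0247. Of 12 class II genes 0 were called by limma (by unadjusted p under 0.05, 2 lower and 1 higher), with a median of -0.04.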

How the data were processed

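RNA-seq was measured in 2 control and 2 cKO samples, grouped by their labels. The authors sequenced 38-base reads of poly(A) RNA on a genome analyzer and mapped them to mm9 with TopHat. Reads of low base quality and those on rRNA or tRNA genes were removed by the authors, and the submitters' processing notes also name Bowtie, SAMtools, bedtools and CASAVA 1.8. The deposited score of each gene has no stated unit. How reads in several places were counted, and whether strand was used, is not given in the sources used here.

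From the deposited scores, log2(score + 0.0001) was fitted for 9727 genes that reached 0.005 in any sample, by lmFit and eBayes with a variance trend (limma 3.58.1, R 4.3.3), with Benjamini-Hochberg adjustment and a threshold of 0.05, and the scripts were tested on simulated data. Python 3.11.15 was used for tables, sequences and figures (numpy 2.4.6, pandas 2.3.3, matplotlib 3.10.9). Nothing says that the samples came from separate mice, so p-values measure the spread between these samples, which may be technical. Gene coordinates are from the GENCODE annotation of NCBIM37, the build called mm9, and promoter sequences from RefSeq (GRCm38.p6). The class I genes and all other lists were chosen with earlier results of these data known. The genes of the list were named by role with all scores, and of related lists those called or in which a single sample stood apart, and of other genes of the span the 5 with the widest gap. Jak2, the chaperones called without control 2, Cd1d1, the H2-M10 genes and the cell type markers that were not called were named after their values were seen. H2-Bl was moved to the T region after its position was seen. Alternatives were other filters, pseudocounts, scalings, no variance trend, the replicate number as a block, minimum folds and each sample left out.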

Additional observations from a re-analysis of the deposited data

How the results depend on the processing

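Of 370 log2 fold changes of genes of the list under the alternatives, 337 kept their direction and their side of the threshold, 4 lost and 9 gained the call, and 20 turned sign. Fits with a block, without the variance trend or with another filter leave the log2 fold change itself unchanged. In those fits only the call could differ, so their unchanged direction is not a check. Over all genes, 122 lower and 79 higher became 230 and 212 with the crossed pairing of the replicates (chosen after seeing the data), 22 and 11 without the variance trend, and 0 and 0 when the filter was dropped (1538 and 1665 by unadjusted limma p under 0.05). With the replicate block 180 were lower and 177 higher, and with scores above 0.05 35 were higher. Leaving out a sample gave 0 to 391 lower and 0 to 439 higher. The deviations of same-numbered samples from their group means correlated at -0.145 over the 9727 genes (Spearman -0.291). With 2 samples a group, the deviations within a group mirror each other. This single comparison therefore cannot show whether the numbers pair the samples. The block changed no call of the list. In the list the 1 gene called lower was 0 with no filter and 0 without the variance trend, and 0 to 8 with a sample left out, while those called higher were 0 to 1. Genes with both cKO scores below both control scores numbered 4 at scores above 0.05 and 8 to 18 with a sample left out. Those with both above numbered 2 at scores above 0.05, 9 with quantile normalization and 5 to 11 with a sample left out. With a sample left out, a single sample remains in its group, and such an order is then easier to reach. Shares of all genes are not given for these settings, so these counts alone do not show a change in the list. Control 2 stood apart in 5 genes at 1.5-fold, 1 at 4-fold, 16 with no minimum fold and 1 with quantile normalization. With no minimum fold, control 1, cKO 1 and cKO 2 did so in 3, 3 and 1.

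The sign turned for H2-D1 with equal medians (-0.0016) and for H2-Q6 (0.045), Tapbp (0.0603) and Psme1 (0.0389) with quantile normalization. Over the fits that leave out 1 sample, the values that turned sign ranged from -0.0240 to 0.0267 (H2-D1), -0.6637 to 0.0644 (H2-Bl), -0.5061 to 0.0309 (H2-Q1), -1.0991 to 0.108 (H2-Q2), -0.0158 to 0.1043 (H2-Q7), -0.0232 to 0.2166 (H2-Q8), -0.9955 to 0.0271 (H2-Q10), -0.6792 to 0.0682 (H2-T3), -0.2476 to 0.0040 (H2-T23), -0.3517 to 0.0720 (H2-T24), -0.0013 to 0.0890 (H2-M5), -0.1926 to 0.0102 (Tap2), -0.0594 to 0.0257 (Tapbp), -0.1089 to 0.0027 (Psme2) and -0.0144 to 0.0890 (Erap1). The cause of these changes was not tested. Depth was inferred, and shared sequence limits the scores of the heavy chain genes.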
